A study of Mus musculus with 4 samples.

Results

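The S100 calcium-binding proteins were followed in cultured mouse 4T1 cells in which the lactate dehydrogenase gene Ldha was knocked down. The 10 genes described are S100a1, S100a3, S100a4, S100a6, S100a8, S100a9, S100a11, S100a13, S100a14 and S100a16. They were taken by name: a probe set was used where the platform annotation gave exactly one of these symbols, which found 10 probe sets, 1 for each gene, among 22180 genes tested. 4T1 is a mammary carcinoma line of BALB/c origin that forms spreading tumours in mice. One group, shLDHA, carried a short hairpin RNA against Ldha; puromycin (10 µg/ml) was used to select it, and the surviving cells were pooled, so it was not a clone. The other, scramble, carried a hairpin of scrambled sequence. The labels do not state whether scramble cells were also selected, so selection and knockdown cannot be told apart. RNA was taken after 24 hours of culture in complete medium, with 400 ng as the input to each whole-transcript Affymetrix array, and there were 2 arrays a group. No label says that the 2 arrays of a group came from separate cultures, so the p-values measure the spread between arrays, which may be technical.

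S100 proteins are small proteins with a pair of EF-hand calcium-binding loops. Most pair up with themselves or with a relative, open a hydrophobic face when calcium binds, and then grip target proteins such as annexins, myosin or cytoskeletal regulators. Several are also released from cells without a signal peptide and act on receptors such as RAGE and Toll-like receptor 4. In breast tumours the family is known mainly for S100A4, first described in metastatic mouse mammary tumour cells, and for S100A8 and S100A9, the calprotectin pair of neutrophils. Nearly all family genes sit in one block that is shared with genes of the skin barrier, and all 10 genes described here lie on mouse chromosome 3.

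None of the 10 genes passed the test in either direction. In a limma fit over all genes, 0 of the 10 had a Benjamini-Hochberg adjusted p under 0.05, where 6.36% of all genes did, 3.37% higher and 2.99% lower in shLDHA. At an unadjusted p under 0.05 there were 3 of 10, S100a3, S100a4 and S100a14, against 21.5% of all genes. At the looser adjusted p of 0.1 there were 2 of 10, against 10.8% of all genes: S100a14 was higher, as were 5.73% of all genes, and S100a3 lower, as were 5.05%. The log2 changes, always shLDHA minus scramble, ran from -0.30 for S100a3 to 0.47 for S100a14. Their median was 0.07, beside a median of 0.01 over all genes tested, and the median size of change was 0.17, beside 0.11 over all genes. The 95% intervals of all 10 measured changes lay inside a 2-fold change in both directions, the widest bound being 0.77 on the log2 scale. These intervals are unadjusted and rest on 4 arrays. For S100a8, S100a9 and S100a16, which were near array background, a measured change can understate the true one, so their intervals set no limit on it.

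Ldha itself checked the labels. It read 6.31 and 6.15 on the shLDHA arrays, against 6.69 and 6.96 on the scramble arrays, in log2 expression units. The groups did not overlap, and the log2 change was -0.59 (SE 0.12, limma adjusted p = 0.039). It passed without scramble replicate 1, and not without scramble replicate 2 (adjusted p = 0.128), shLDHA replicate 1 (0.0965) or shLDHA replicate 2 (0.163). The epithelial markers Epcam, Krt8, Krt18, Krt7, Krt19 and Cdh1, expected of this line, were all above 4.19, the level below which 95% of 1105 olfactory receptor genes lay. That level is used below as a rough mark of array background, and levels of different genes are not otherwise set against each other.

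Promoter sequences are shown for 4 family genes that stand for the different outcomes. S100a7a, not one of the 10, was the single family gene to pass the test. S100a4 was higher in both shLDHA arrays without passing. S100a11 had nearly equal values in both groups. S100a9 was near array background in both. Each runs 5′ to 3′ on the plus strand, or on the minus strand for S100a9, from 250 bases before to 50 bases after the RefSeq gene start (build GRCm38.p6).
S100a7a, chr3:90654052-90654351: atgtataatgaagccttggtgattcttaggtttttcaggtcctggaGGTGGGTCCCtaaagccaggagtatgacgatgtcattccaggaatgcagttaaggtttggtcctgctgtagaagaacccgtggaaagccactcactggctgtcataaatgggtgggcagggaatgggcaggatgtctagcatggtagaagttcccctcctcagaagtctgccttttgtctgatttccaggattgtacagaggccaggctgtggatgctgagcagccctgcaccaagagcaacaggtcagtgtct
S100a4, chr3:90603520-90603819: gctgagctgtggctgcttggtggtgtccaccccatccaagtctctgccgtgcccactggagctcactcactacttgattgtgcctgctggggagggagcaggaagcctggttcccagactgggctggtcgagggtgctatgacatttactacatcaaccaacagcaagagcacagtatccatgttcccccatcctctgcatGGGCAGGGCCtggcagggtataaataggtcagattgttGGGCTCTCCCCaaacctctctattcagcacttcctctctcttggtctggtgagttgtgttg
S100a11, chr3:93520246-93520545: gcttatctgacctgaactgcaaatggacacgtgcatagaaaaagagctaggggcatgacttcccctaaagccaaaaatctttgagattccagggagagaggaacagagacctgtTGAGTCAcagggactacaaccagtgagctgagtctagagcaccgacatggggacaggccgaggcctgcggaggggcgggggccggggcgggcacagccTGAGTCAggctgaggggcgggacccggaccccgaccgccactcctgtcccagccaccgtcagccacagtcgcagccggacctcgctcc
S100a9, chr3:90695672-90695971: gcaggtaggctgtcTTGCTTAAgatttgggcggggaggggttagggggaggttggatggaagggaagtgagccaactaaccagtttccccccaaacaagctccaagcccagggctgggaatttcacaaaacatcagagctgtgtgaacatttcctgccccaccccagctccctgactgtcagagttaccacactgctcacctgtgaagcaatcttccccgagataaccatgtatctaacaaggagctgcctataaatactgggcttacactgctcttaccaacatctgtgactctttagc
Capitals mark, on either strand, an NF-kB-like pattern, GGG and CC with any 5 bases between, in S100a7a and S100a4 (overlapping matches run together), the AP-1 pattern TGANTCA in S100a11 and the C/EBP pattern TTGCNNAA in S100a9. Over all 32851 promoter windows in the RefSeq table, 50.8% held the first, 7.81% the second and 10.8% the third. The table held 13 windows for 9 of the 10 genes, and 7 of the 13 held the NF-kB-like pattern, 2 the AP-1 pattern and 1 the C/EBP pattern. Some genes had more than 1 window, and by gene 6 of the 9 held the NF-kB-like pattern. The S100a1 and S100a13 windows overlap and hold the same 2 NF-kB-like matches, so both windows count them. The S100a11 window, shown for AP-1 alone, also held 4 NF-kB-like matches, some of which overlap. A match is a description of the letters and not a measured site.

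Among the intracellular S100 proteins linked to motility, S100a4 was slightly higher. S100A4, also called metastasin, binds the heavy chain of nonmuscle myosin and is widely used as a fibroblast marker. S100a4 read 7.93 and 7.99 on the shLDHA arrays, against 7.71 and 7.64 on the scramble arrays. Both shLDHA arrays lay above both scramble arrays by 0.22 or more. The log2 change was 0.28 (SE 0.08, 95% interval 0.08 to 0.48), which did not pass over all genes (limma adjusted p = 0.116). It passed in 2 of 13 alternative settings, when only genes at or above the median level were tested (adjusted p = 0.0337) and with a variance trend (adjusted p = 0.0252), and its adjusted p ran from 0.0252 to 0.374 over all 13.

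S100A6, or calcyclin, is a proliferation-linked family protein that binds the calcyclin-binding protein Cacybp. S100a6 read 11.53 and 11.46 on the shLDHA arrays, against 11.29 and 11.38 on the scramble arrays. The groups were 0.08 apart, and the log2 change of 0.16 (SE 0.09) did not pass (limma adjusted p = 0.372). S100A11, or calgizzarin, is a partner of annexin A1. S100a11 read 10.82 and 10.89 on the shLDHA arrays, against 10.87 and 10.90 on the scramble arrays. The groups overlapped, with a log2 change of -0.03 (SE 0.08, 95% interval -0.23 to 0.17, limma adjusted p = 0.892), which became 0.01 without shLDHA replicate 1. A pseudogene, S100a11-ps, had its own probe set with a log2 change of 0.00, and signal shared between it and S100a11 cannot be separated here.

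**Figure D1:**
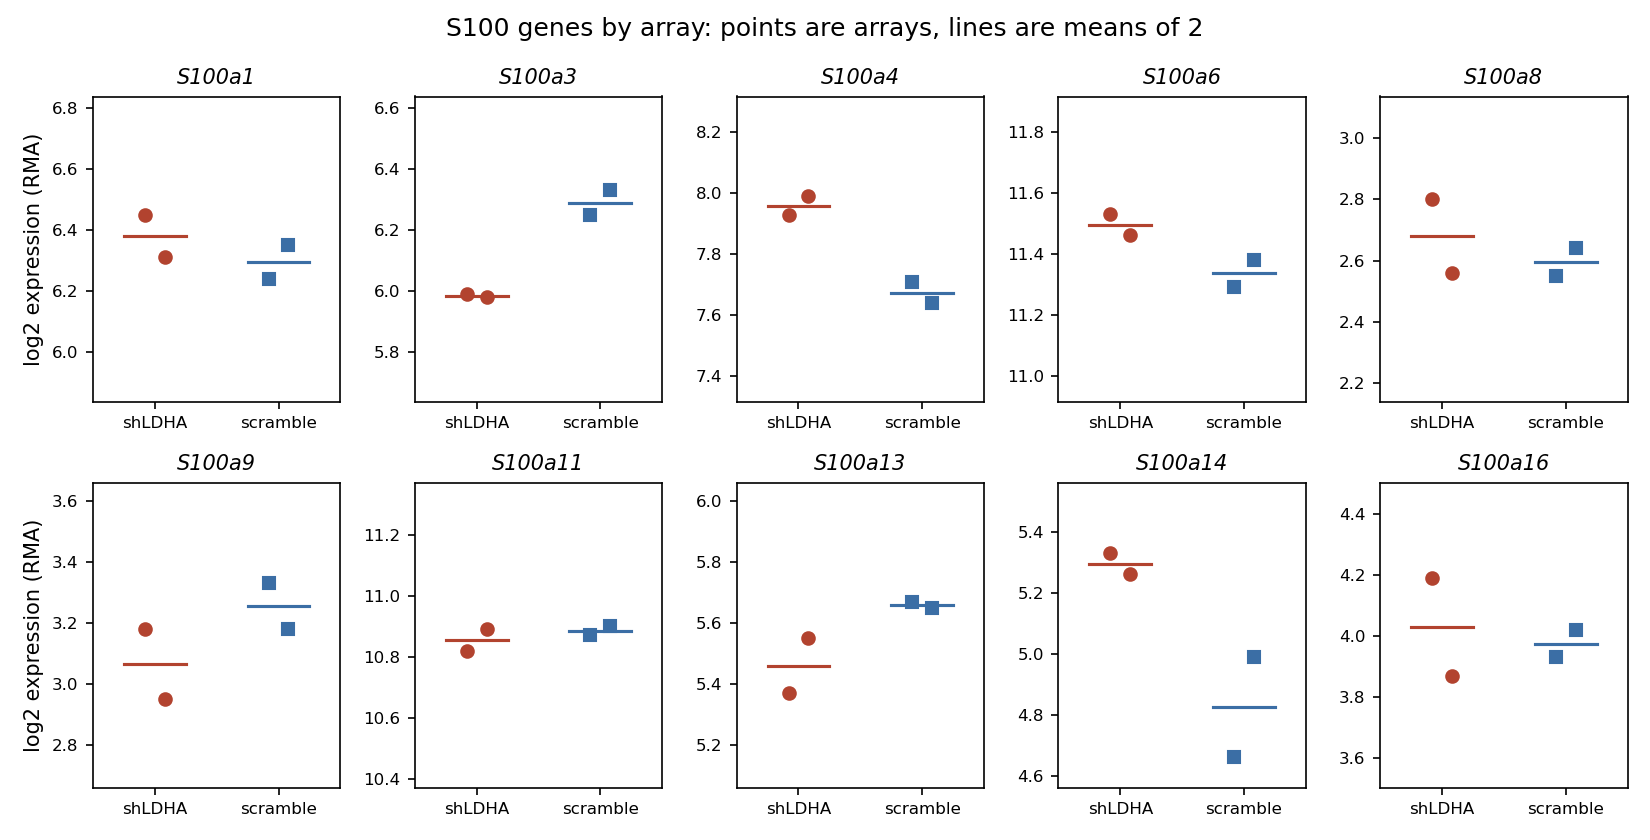
Log2 expression of the 10 S100 genes on each array, shLDHA (circles) left of scramble (squares), with lines at the means of 2 arrays; every panel spans 1 log2 unit at a different level. The 2 shLDHA arrays lie above both scramble arrays for S100a4, S100a6 and S100a14 and below both for S100a3, S100a9 and S100a13.

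The epithelial family genes gave the largest change by size. S100A14 is found mainly in epithelia, and its human form pairs with S100A16. S100a14 read 5.33 and 5.26 on the shLDHA arrays, against 4.66 and 4.99 on the scramble arrays. Both shLDHA arrays were higher, and the scramble arrays differed from each other by more than the shLDHA arrays did. The means were 5.30 ± 0.05 in shLDHA and 4.83 ± 0.24 in scramble (SD, n = 2 each). The log2 change was 0.47 (SE 0.12, 95% interval 0.17 to 0.77), or 1.38-fold, with a limma adjusted p of 0.0856. It was 0.64 and passed without scramble replicate 2 (adjusted p = 0.0407), and it was 0.30 without scramble replicate 1. It also passed among genes at or above the median level (adjusted p = 0.0265) and with a variance trend (adjusted p = 0.0427). Over the 13 alternative settings its adjusted p ran from 0.0265 to 0.274. Under those settings the share of tested genes that passed was 2.82% without scramble replicate 2, 25.1% with the filter and 12.7% with the trend.

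S100a16, a broadly expressed relative, read 4.19 and 3.87 on the shLDHA arrays, against 3.93 and 4.02 on the scramble arrays. The groups overlapped, its mean over the arrays was under the background mark, and the log2 change was 0.05 (SE 0.12, limma adjusted p = 0.865). Without shLDHA replicate 1 it was -0.11. Of the epithelial markers, Epcam, an adhesion molecule of epithelial cells, rose by 0.53 (limma adjusted p = 0.0178) and the keratin gene Krt8 by 0.47 (0.0255). Neither passed with any 1 array left out, where the adjusted p was 0.065 to 0.092 for Epcam and 0.0832 to 0.114 for Krt8. The remaining 4 of 6 did not pass, and Krt19 had a log2 change of -0.33. The mean log2 level of all 6 was 9.22 and 9.23 on the shLDHA arrays, against 9.03 and 9.02 on the scramble arrays. The part of such a shift in the S100a14 values was not tested. In bulk RNA a change in the share of cells of a kind and a change in RNA per cell cannot be told apart.

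S100a3 was the lowest of the 10 by change. Its protein binds zinc as well as calcium and is known from the cuticle of hair. S100a3 read 5.99 and 5.98 on the shLDHA arrays, against 6.25 and 6.33 on the scramble arrays. The groups were 0.26 apart, and the log2 change was -0.30 (SE 0.08, 95% interval -0.50 to -0.10, limma adjusted p = 0.0963). It passed in 1 of 13 alternative settings, among genes at or above the median level (adjusted p = 0.0263), and its adjusted p ran from 0.0263 to 0.340 over all 13. S100a3 and S100a4 lie close together on the chromosome, with S100a2 between them, and their changes had opposite signs.

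S100A13 takes part in the release of fibroblast growth factor and interleukin 1 alpha, proteins that leave cells without a signal peptide. S100a13 read 5.37 and 5.55 on the shLDHA arrays, against 5.67 and 5.65 on the scramble arrays. Both shLDHA arrays were lower, by at least 0.10, with a log2 change of -0.20 (SE 0.10, 95% interval -0.43 to 0.03, limma adjusted p = 0.294). Its cargo gene Il1a moved much further: it read 5.63 and 5.58 on the shLDHA arrays, against 10.74 and 10.64 on the scramble arrays, a log2 change of -5.08 (limma adjusted p = 8.32e-06). S100A1 is known from heart muscle, where it acts on the calcium pump and the ryanodine receptor. S100a1 read 6.45 and 6.31 on the shLDHA arrays, against 6.24 and 6.35 on the scramble arrays. The groups overlapped, and the log2 change was 0.08 (SE 0.09, limma adjusted p = 0.690). S100a1 and S100a13 run in opposite directions from neighbouring starts, and their 300-base promoter windows share 204 bases.

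The calprotectin genes were near background in both groups. S100A8 and S100A9 form a heterodimer that neutrophils and monocytes hold in large amounts, and some inflamed epithelia make it too. S100a8 read 2.80 and 2.56 on the shLDHA arrays, against 2.55 and 2.64 on the scramble arrays. The groups overlapped, and the log2 change was 0.08 (SE 0.11, limma adjusted p = 0.743), or -0.04 without shLDHA replicate 1. S100a9 read 3.18 and 2.95 on the shLDHA arrays, against 3.33 and 3.18 on the scramble arrays. The nearest arrays of the groups were equal to 2 decimals, and the log2 change was -0.19 (SE 0.11, 95% interval -0.46 to 0.07, limma adjusted p = 0.388). Both genes lay below the background mark of 4.19 on every array, where a fold can understate a change. Of 14 neutrophil and myeloid markers, 13 also lay at or below that mark, the neutrophil genes Ly6g, Mpo, Elane, Ngp, Camp and Ltf among them. The mean log2 level of the 14 was 3.26 and 3.25 on the shLDHA arrays, against 3.36 and 3.35 on the scramble arrays. That mean includes Cd68, the marker with the largest change by size, and was not taken without it. Cd68, a lysosomal protein gene that is not confined to myeloid cells, was above the mark and fell by 0.91 on the log2 scale (limma adjusted p = 0.00516). All 5 endothelial and 7 of 9 fibroblast markers were at or below the mark as well. Of these markers 0 passed, where 6.36% of all genes did.

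Taken by direction, 3 of the 10 genes had both shLDHA arrays above both scramble arrays, against 26.2% of all genes, and 3 had both below, against 24% of all genes. Together that is 6 of 10, beside 50.3% of all genes, so the share without overlap was near the background.

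**Figure D2:**
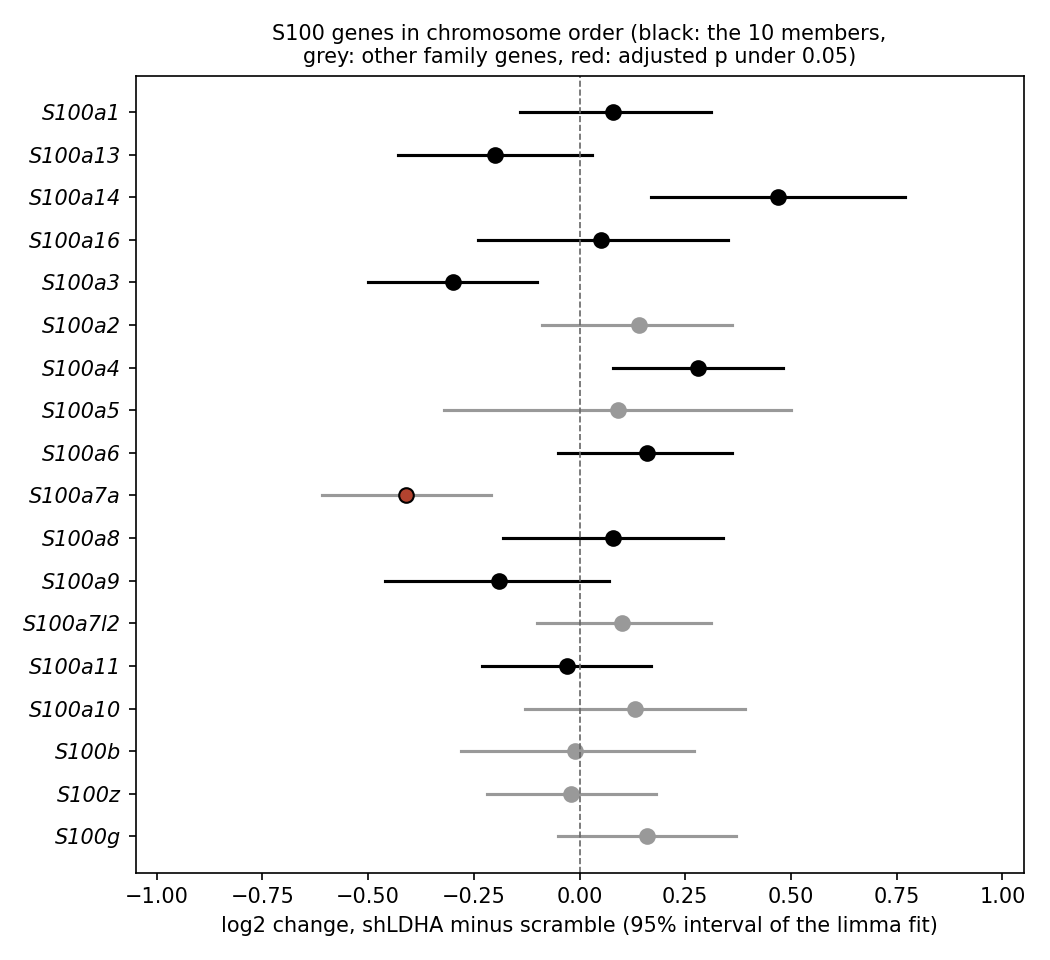
Log2 change, shLDHA minus scramble, of S100 genes with the 95% interval of the limma fit, listed from top to bottom in chromosome order from S100a1 to S100a10 and then the genes on other chromosomes. Changes of both signs occur along the block, and S100a7a alone (red) passed.

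The rest of the family was tested in the same fit. Over all genes, 2.99% passed as lower and 3.37% as higher. Of 7 family genes outside the 10, 1 fell, 0 rose and 6 did not pass, with a median log2 change of 0.09. S100a7a, the mouse relative of the human skin protein psoriasin, was the exception. It read 7.47 and 7.42 on the shLDHA arrays, against 7.84 and 7.87 on the scramble arrays. Both shLDHA arrays were lower by at least 0.37, with a log2 change of -0.41 (SE 0.08, 95% interval -0.61 to -0.21), or 1.33-fold lower (limma adjusted p = 0.0381). The call rested on all 4 arrays: without each array in turn the adjusted p was 0.110 to 0.155. S100a10, whose protein has lost calcium binding and joins annexin A2 in a complex, read 10.73 and 10.98 on the shLDHA arrays, against 10.73 and 10.72 on the scramble arrays. Its log2 change of 0.13 (SE 0.11) did not pass. S100a5, S100a7l2, S100b, S100g and S100z were below the background mark, with log2 changes of 0.09, 0.10, -0.01, 0.16 and -0.02. So was S100a2 (0.14), which was added after its value was seen.

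The 12 tested genes from S100a1 to S100a9, 9 of them among the 10 described, held 1 call, S100a7a. For the counts here, 6.36% of all genes passed in either direction. Between S100a1 and S100a11, 53 other genes were tested. S100a7a was the single one that passed, and 7 of the 53 were above the background mark. The nearest tested genes before S100a1, Snapin and Chtop, had log2 changes of 0.10 and -0.21 and did not pass. A list of 22 tested genes from this stretch held mostly cornified envelope genes, which build the outer layer of skin. Smcp, Pglyrp3 and Pglyrp4, which are not of that kind, were also in it. Of the 22, 0 passed (median log2 change 0.01), and 18 were at or below the background mark. Lor, the gene of loricrin, had a log2 change of -0.35 (limma adjusted p = 0.0762) and Lce3b one of -0.42. Of 7 fused-type genes, in which an S100 domain heads a long repeat protein such as filaggrin, 0 passed and all 7 were at or below the mark.

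Most receptors of released S100 proteins did not pass. Over all genes, 3.37% passed as higher and 2.99% as lower. Of the 12 receptors tested, 1 rose, 1 fell and 10 did not pass, with a median log2 change of -0.06. Alcam, an adhesion molecule also described as a receptor of S100B, read 7.19 and 7.04 on the shLDHA arrays, against 8.36 and 8.34 on the scramble arrays. The groups were 1.15 apart, a log2 change of -1.24 (SE 0.09, limma adjusted p = 0.0016), and it passed in all 13 alternative settings. Tlr4, a receptor of the S100A8 and S100A9 pair and of bacterial lipopolysaccharide, read 7.07 and 7.06 on the shLDHA arrays, against 6.53 and 6.65 on the scramble arrays. It rose by 0.47 (SE 0.09, limma adjusted p = 0.0308) and did not pass with any 1 array left out (adjusted p = 0.0681 to 0.138). Ly96, which encodes the MD-2 partner of Toll-like receptor 4, had a log2 change of -0.35 (limma adjusted p = 0.0737), and Mcam one of 0.28.

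**Figure D3:**
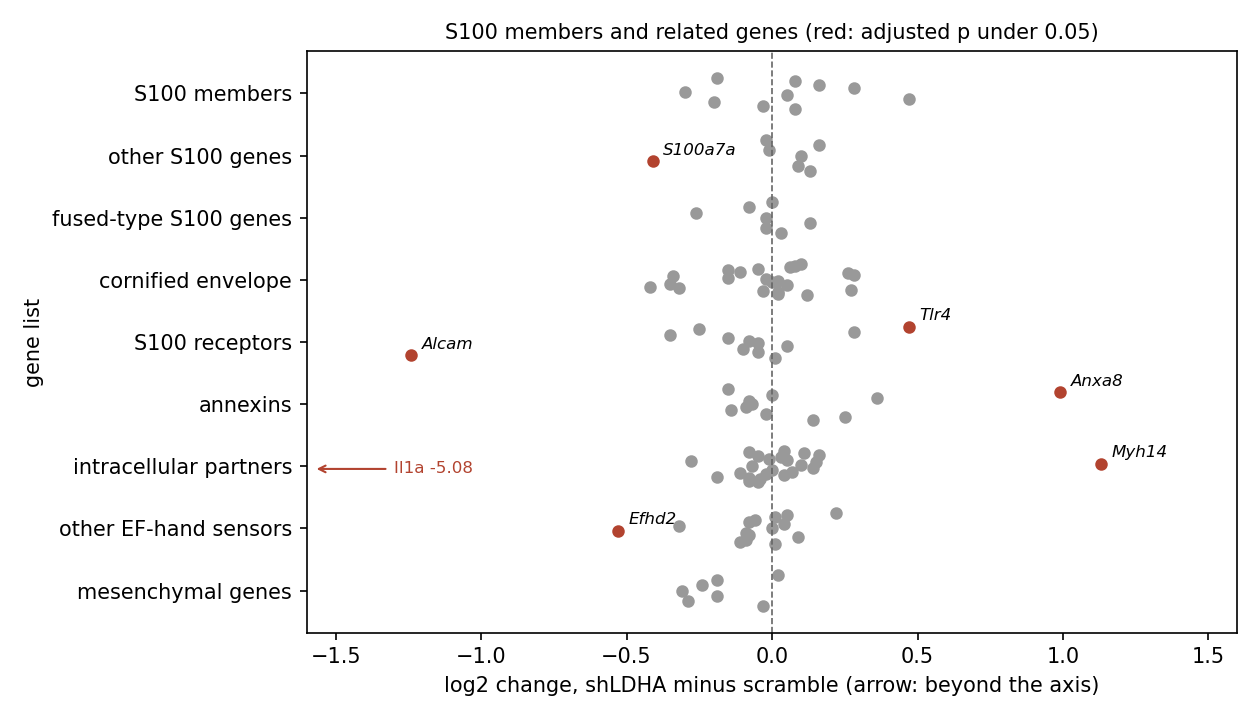
Log2 change, shLDHA minus scramble, of each tested gene in the S100 set and 8 related lists, a point a gene, red where the adjusted p was under 0.05; Il1a, at -5.08, is beyond the axis and drawn as an arrow. The S100 genes lie between -0.30 and 0.47 with no red point, while Alcam, Anxa8, Myh14 and Il1a changed by about 1 or more.

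Annexins, the calcium-dependent membrane proteins that several S100 proteins bind, held 1 rise among 11 tested, with 0 falls and a median log2 change of -0.02. Among all genes, 3.37% passed as higher and 2.99% as lower. Anxa8 read 7.05 and 7.20 on the shLDHA arrays, against 6.16 and 6.11 on the scramble arrays. It rose by 0.99 (SE 0.09, limma adjusted p = 0.00352) and passed in all 13 alternative settings. Anxa6 (0.36, adjusted p = 0.074) and Anxa10 (0.25) had the next smallest p-values and did not pass. Of 25 other intracellular targets and partners, 1 rose and 1 fell, and the median was -0.01. Besides Il1a, the gene that passed was Myh14, which encodes the heavy chain of nonmuscle myosin IIC, a relative of the myosin that S100A4 binds. Myh14 read 5.51 and 5.26 on the shLDHA arrays, against 4.06 and 4.44 on the scramble arrays, and rose by 1.13 (SE 0.15, limma adjusted p = 0.0109), but did not pass without shLDHA replicate 1 (adjusted p = 0.064). Ppfibp1, which encodes liprin beta, a target of S100A4, had a log2 change of -0.28 and Cyba, a subunit of the phagocyte oxidase, one of -0.19, and neither passed.

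In either direction, 6.36% of all genes passed. Of 15 other small EF-hand calcium proteins tested, 1 fell and 0 rose, with a median log2 change of -0.06. The one was Efhd2, an actin-binding EF-hand protein gene, which read 6.78 and 7.03 on the shLDHA arrays, against 7.40 and 7.48 on the scramble arrays (log2 change -0.53, SE 0.11, limma adjusted p = 0.04). With any 1 array left out its adjusted p was 0.0594 to 0.133. Nucb2 (-0.32) and Sri (0.22) did not pass. Of 7 mesenchymal genes that are often read together with S100a4, 0 passed, with a median of -0.19. Among them the fibronectin gene Fn1 had a log2 change of -0.29 and the repressor gene Snai2 one of -0.31, the opposite sign to S100a4. Of the 7, 3 were at or below the background mark, Snai2 among them.

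**Figure D4:**
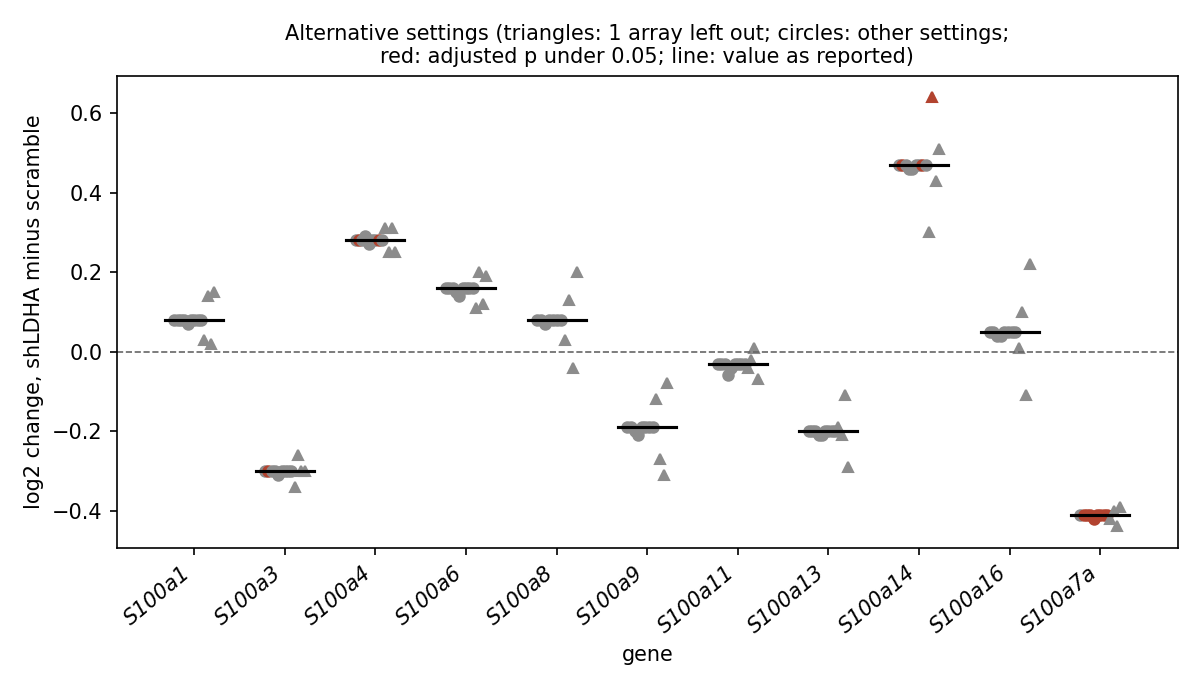
Log2 change, shLDHA minus scramble, of the 10 S100 genes and S100a7a under up to 13 alternative settings (triangles: 1 array left out; circles: other settings; red: adjusted p under 0.05), with a line at the reported value. S100a3, S100a4 and S100a14 have red points, and S100a8, S100a11 and S100a16 cross 0 when shLDHA replicate 1 is left out.

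Over up to 13 alternative settings, 7 of the 10 genes passed in none, S100a3 in 1, S100a4 in 2 and S100a14 in 3. The share of all genes that passed in any setting was not counted, so these counts have no background beside them. The filter at the median level alone passed 25.1% of the genes it tested, and the variance trend 12.7%. Filters on level removed the dimmest genes, which left 7 of the 10 above the median level.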

How the data were processed

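The authors deposited log2 expression values of 41345 probe sets on 4 arrays, 2 per group, and the submitters' processing notes name RMA with R 3.4.0. Annotation version and build are not given in the sources used here. Of the probe sets, 23521 carried exactly 1 gene symbol in the platform annotation. For each gene the brightest one was kept, which gave 22180 genes; each of the 10 S100 genes had 1. Groups and replicate numbers came from the sample titles.

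limma 3.58.1 in R 4.3.3 (lmFit, eBayes, no covariate, no filter) compared shLDHA with scramble over all genes, two-sided, with Benjamini-Hochberg adjustment and a threshold of 0.05. There were 2 residual and 4.52 prior degrees of freedom. All adjusted p-values come from this tool. Arrays have no read depth; with 4 of them the precision is limited by their number. On simulated data with 22180 genes and 200 of them changed, 10.7% of changes of 0.5, 90.3% of changes of 1 and 99.2% of changes of 2 on the log2 scale were recovered. Of the simulated calls, 4.43% were false. The simulated variances came from the fitted model, with independent normal noise. A false share near the threshold was therefore set in advance and does not measure false calls in the data. The fit of the data called 1410 genes, more than were changed in the simulation. Fewer changed genes make the adjusted threshold stricter, so the recovered shares are not the recovery in the data.

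The S100 genes, 8 related lists (106 of 114 entries tested) and the cell markers were chosen with earlier results of these data known. Named were the 10 genes, Ldha, the other S100 genes, the genes of each list past the threshold or with the smallest p, and neighbours in gene order. The pseudogene S100a11-ps was named outside this rule. Any other is said to be chosen after its values were seen. Gene order and promoters came from RefSeq, GRCm38.p6. Alternatives were the replicate block, 2 filters, 2 normalizations, 2 treatments of probe sets, 2 variance models, each array left out, and an adjusted p under 0.1. Figures used matplotlib 3.10.9.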

Additional observations from a re-analysis of the deposited data

How the results depend on the processing

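The counts over all genes moved with the setting: 747 higher and 663 lower in shLDHA as reported, 433 and 405 with the replicate number as a block, 1442 and 1341 among genes at or above the median level, 1425 and 1381 with a variance trend, 1271 and 1120 at an adjusted p under 0.1, and 150 to 322 and 220 to 316 with 1 array left out. Of the S100 genes, 0 were higher and 0 lower as reported and with the replicate block. Among genes at or above the median level, where 7 were tested, 2 were higher and 1 lower, and 25.1% of all genes tested there passed. With a variance trend 2 were higher and 0 lower, and 12.7% of all genes passed. At an adjusted p under 0.1 there were 1 and 1, beside 10.8% of all genes. Without scramble replicate 2 the log2 change of S100a14 was 0.64. Their median log2 change was 0.07, and -0.02 to 0.17 with 1 array left out, the lowest without shLDHA replicate 1 and the highest without shLDHA replicate 2. Without shLDHA replicate 1, S100a8, S100a11 and S100a16 changed sign; with 1 array left out they ran from -0.04 to 0.20, -0.07 to 0.01 and -0.11 to 0.22. Of 126 results of an S100 gene under an alternative setting, 117 kept both sign and side of the threshold, 3 changed sign and 6 newly passed; the cause was not tested. Under the replicate block, the filters, the probe set treatments and the variance models, each S100 log2 change was the same by design. Only the side of the threshold could differ there, so those results say nothing on the stability of the sign. Leaving out an array also lowers the residual degrees of freedom. Deviations of same-numbered arrays correlated at -0.027 across genes, so no variation shared by replicate number was seen. That value cannot tell whether same-numbered arrays were prepared together. With the block in the limma fit, S100a7a (adjusted p = 0.0784) and Ldha (0.0734) did not pass. With 2 arrays per group, small changes may go uncalled, and S100a8, S100a9 and S100a16 were near array background.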

Other observations

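Ilf2, which encodes a subunit of the nuclear factor NF45 and NF90 complex, lies a few genes before S100a1 and was picked after its values were seen. It read 9.05 and 9.21 on the shLDHA arrays, against 8.62 and 8.60 on the scramble arrays, a log2 change of 0.52 (SE 0.09, limma adjusted p = 0.0259). It did not pass with any 1 array left out (adjusted p = 0.0624 to 0.116).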
